A study of Mus musculus with 18 samples.

Results

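The response of the total RNA of astrocyte cultures to ethanol was measured in 6 of the 18 libraries of the series. These are the input libraries, made from lysate before any ribosomes were pulled down. A spin had cleared this lysate of insoluble debris, and how much nuclear RNA stayed in it was not measured. The libraries were chosen by their fraction label and not by any measured value. There were 3 input libraries of control dishes (dishes 22, 23 and 24) and 3 of dishes exposed to 50 mM ethanol for 24 h (dishes 16, 17 and 18), numbered replicates 4, 5 and 6 in each group. All dishes held primary cortical cultures from postnatal day 0 Tg(Aldh1l1-EGFP/Rpl10a)JD130Htz/J mice on a mixed B6;FVB background, with males and females in equal number, so that control cells carried the tagged ribosomal protein as well, under the promoter of the astrocyte gene *Aldh1l1*. Cells were grown in serum for 14 d, replated, grown for 6 d more and kept without serum for 24 h before and during the exposure. Control and ethanol dishes stood in sealed chambers with an open dish of water or of ethanol, and they carry separate blocks of dish numbers, so chamber and ethanol cannot be told apart. No label ties a dish to a culture or litter of its own, so the p-values rest on the spread between dishes, which may be technical. That spread was estimated partly from other genes, so the SE of a gene can be smaller than its own libraries would give.

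Ethanol crosses cell membranes freely and is oxidised to acetaldehyde and then to acetate, in brain largely by catalase, cytochrome P450 enzymes and aldehyde dehydrogenases. Astrocytes take up glutamate, supply neurons with lactate and cholesterol, and secrete much of the extracellular matrix of the developing brain, and cultured astrocytes still divide. Exposure of the developing brain to ethanol is studied as a model of fetal alcohol spectrum disorders.

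Each input library had 74706940 to 94032838 read pairs counted on genes. Read pairs that matched several places made up 4.56% to 4.77% of all pairs, and mitochondrial genes took 2.36% to 2.64% of the counted pairs in control and 2.59% to 2.65% in ethanol libraries. Levels are given as CPM, counts scaled to a common library size with TMM factors, which lay between 0.995 and 1.005, and values of 3 libraries are listed in the order of replicates 4, 5 and 6. The size of a change is given as a log2 fold change, the log2 of the ethanol level over the control level. Astrocyte markers were present. *Aldh1l1* had 191, 193 and 198 CPM in control libraries, and 28 of 32 astrocyte markers had a mean of at least 1 CPM. Markers of other cells were present as well. The 20 microglia and macrophage markers summed to 721 to 747 CPM in control and 725 to 822 CPM in ethanol libraries, and the defining ones *Csf1r* and *Cx3cr1* had means of 23.7 and 3.26 CPM in control. The neuronal markers *Rbfox3* and *Dcx*, the oligodendrocyte marker *Sox10* and the endothelial marker *Pecam1* stayed below 0.4 CPM in both group means. Other members of these lists were expressed, with 9 of 18 neuronal, 9 of 18 oligodendrocyte lineage and 9 of 17 endothelial and mural markers over 1 CPM, and the lists summed to 196 to 199.5, 275 to 298 and 259 to 267 CPM in control libraries. The ciliary factor *Foxj1* and the fibroblast and mural genes *Col1a1* and *Pdgfrb* were at 374, 146.5 and 140.5 CPM in control. In bulk RNA of this kind, fewer cells of a type and less RNA per cell cannot be told apart.

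Ethanol changed many transcripts by a little. With edgeR's quasi-likelihood test and an adjusted p below 0.05 over 24495 genes, 1767 genes (7.21%) were upregulated and 1905 genes (7.78%) were downregulated. The median change was 10.5% upward among the former and fell by 9.67% among the latter. A change over 1.5-fold was reached by 60 upregulated and 108 downregulated genes. All 3 ethanol libraries lay above all 3 control libraries in 13.4% of the genes tested and below them in 13.5%. Genes with more reads were called more often. Among 2318 genes of at least 100 CPM, 18.5% were upregulated and 27.3% downregulated, against 5.65% and 6.68% of 3787 genes of 1 to 10 CPM. Of 7514 genes of 10 to 100 CPM, 14.3% were upregulated and 12.7% downregulated. The upregulated genes together held 17.2% ± 0.0357 (SD, n = 3) of the counts of control libraries and 18.8% ± 0.0907 of those of ethanol libraries, while the downregulated genes went from 24.7% ± 0.0389 to 22.7% ± 0.0765. Against a null fold change of 1.2 only 8 upregulated and 47 downregulated genes passed. With a null of no change but all 18 libraries in one fit, 1072 genes were upregulated and 1103 downregulated. The plot of gene lists shows the calls by function. In the lists of mitosis, DNA replication, contraction, splicing, nucleolar and respiratory chain genes more members were downregulated than not. In the lists of chaperones and the proteasome downregulated members, and in those of lysosomal, FoxO-related, stress response and transporter genes upregulated members, outnumbered those called the other way. Over all members tested, the counts in the guidance, collagen, growth factor, receptor and immediate early lists were near or below the shares among genes of 10 to 100 CPM. Only 29 of 44 collagens and 19 of 40 receptor subunits averaged at least 1 CPM, so for these lists the comparison is uneven.

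**Figure D1:**
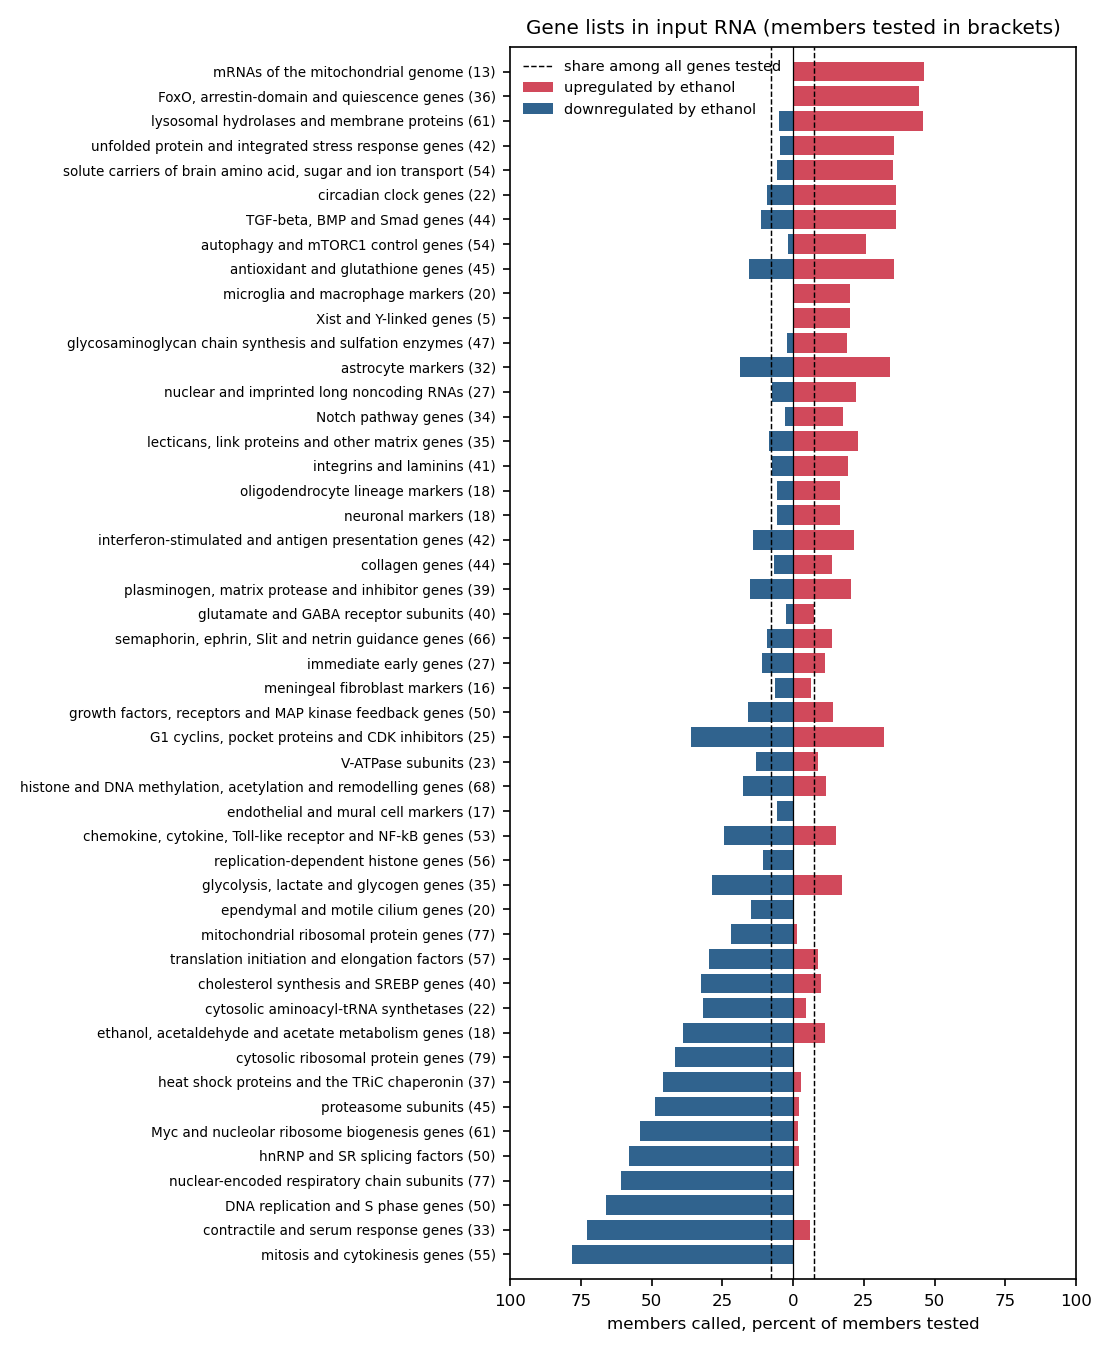
Share of the tested members of each of 49 gene lists that were upregulated (red, to the right) or downregulated (blue, to the left) by ethanol in input RNA, in percent, with the number tested in brackets. The dashed lines mark the shares among all genes tested, 7.21% and 7.78%. Mitosis genes, with 43 of 55 downregulated, reach furthest to the left.

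The largest increase among called genes that averaged 5 CPM or more was that of *Ypel4* (ENSMUSG00000034059, chromosome 2 from 84734058 to 84738655), a member of the yippee family of small zinc-binding proteins. It had 5.36, 5.12 and 5.62 CPM in control and 8.74, 9.40 and 8.59 CPM in ethanol libraries. The groups did not overlap (log2 fold change 0.73, SE 0.0809, adjusted p = 3.41e-17). About 15.4% of its read pairs lay on the opposite strand, and on its own strand the log2 fold change was 0.81. *Hapln4* (ENSMUSG00000007594, chromosome 8 from 70083457 to 70090862), a link protein that ties hyaluronan to proteoglycans in perineuronal nets, had 4.48, 4.46 and 4.13 CPM in control and 5.98, 6.77 and 6.89 CPM with ethanol (log2 fold change 0.59, SE 0.0905, adjusted p = 6.59e-09). The arrestin-domain gene *Arrdc3* (ENSMUSG00000074794, chromosome 13 from 80883384 to 80896042), which takes part in the turnover of membrane receptors, went from 42.9, 40.7 and 40.6 CPM to 59.1, 58.6 and 60.5 CPM (log2 fold change 0.52, SE 0.0336, adjusted p = 5.34e-51). The 3 ethanol libraries lay close together and far above the controls.

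The other large increases fell on genes of several kinds. *Jag2*, a Notch ligand, had 7.25, 7.54 and 7.44 CPM in control and 8.26, 11.7 and 10.3 CPM with ethanol, and replicate 4 was the lowest of the ethanol libraries (log2 fold change 0.44, SE 0.0731, adjusted p = 8.57e-08). *Slc7a4*, a member of the cationic amino acid transporter family, and *Slc16a6*, a monocarboxylate transporter family gene, had log2 fold changes of 0.44 (SE 0.0908) and 0.42 (SE 0.0612). *Hcn2*, a hyperpolarization-activated cation channel, rose from 12.9, 14.1 and 14.1 CPM to 18.5, 19.4 and 16.9 CPM (log2 fold change 0.41, SE 0.0553, adjusted p = 7.06e-12). *Susd4*, a complement regulator, *Kifc2*, a kinesin, *Mdga1*, an adhesion protein of the immunoglobulin family, *Tmem178b*, *Fam84a* and the ubiquitin ligase *Rnf128* rose by 0.41 to 0.51 on the log2 scale, none with an overlap. *H2-Q6*, a nonclassical class I histocompatibility gene, had 70.2, 68.7 and 66.3 CPM in control and 92.0, 85.6 and 102 CPM with ethanol (log2 fold change 0.44, SE 0.0300, adjusted p = 2.17e-29), and *Gbp11*, annotated as a polymorphic pseudogene of the guanylate-binding family, rose by 0.52. Both belong to families of near-identical copies, and pairs that matched several places were left out, so their levels are uncertain. Beyond these 15 genes, the next increase was that of *Yod1* at 0.40.

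Among the decreases, the largest was that of *Cnn1* (ENSMUSG00000001349, chromosome 9 from 22099216 to 22109630), the actin-binding protein calponin of smooth muscle. It had 115, 119.6 and 119 CPM in control and 72.0, 74.0 and 67.8 CPM in ethanol libraries, well apart from each other (log2 fold change -0.73, SE 0.0270, adjusted p = 9.05e-155). *Acta2* (ENSMUSG00000035783, chromosome 19 from 34241090 to 34255590), smooth muscle actin and one of the most abundant transcripts here, fell from 1217, 1183 and 1246 CPM to 807, 839.9 and 775 CPM (log2 fold change -0.59, SE 0.0218, adjusted p = 1.31e-155). *Prc1* (ENSMUSG00000038943, chromosome 7 from 80294450 to 80316259), which bundles the microtubules of the spindle midzone, had 9.02, 7.30 and 8.40 CPM in control and 5.28, 5.14 and 5.13 CPM with ethanol (log2 fold change -0.67, SE 0.0829, adjusted p = 1.26e-13). Of the 15 largest decreases, *Prc1*, *Uhrf1*, *Tk1*, *Iqgap3*, *Pclaf* and *Mki67* are genes of dividing cells. *Uhrf1*, which carries DNA methylation through replication, fell from 15.7, 15.2 and 14.5 CPM to 9.46, 10.1 and 9.74 CPM (log2 fold change -0.63, SE 0.0620, adjusted p = 8.14e-22).

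The remaining large decreases were of other kinds. The Ras guanine nucleotide exchange factor *Rasgrp3* fell by 0.63 (SE 0.0811) on the log2 scale, and *Mrvi1*, a substrate of cGMP-dependent kinase in smooth muscle, by 0.57 (SE 0.0782). *Ndufb2*, a subunit of respiratory complex I, was low, at 5.87, 6.52 and 6.68 CPM in control and 3.86, 4.60 and 3.92 CPM with ethanol (log2 fold change -0.62, SE 0.0922, adjusted p = 1.12e-09). *Tceal5* and *Rtn4rl2*, a member of the Nogo receptor family, fell by 0.61 and 0.61 on the log2 scale. *Gm42928* (chromosome 3 from 121424236 to 121427574, minus strand), a transcript without a known function, fell by 0.58 (SE 0.0531) on the log2 scale. Its interval overlaps the start of the calponin gene *Cnn3* on the other strand, which fell by 0.17 on the log2 scale, and pairs on both genes were set aside as ambiguous. The next decrease after the 15 was that of the spindle gene *Ckap2l* at -0.56.

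**Figure D2:**
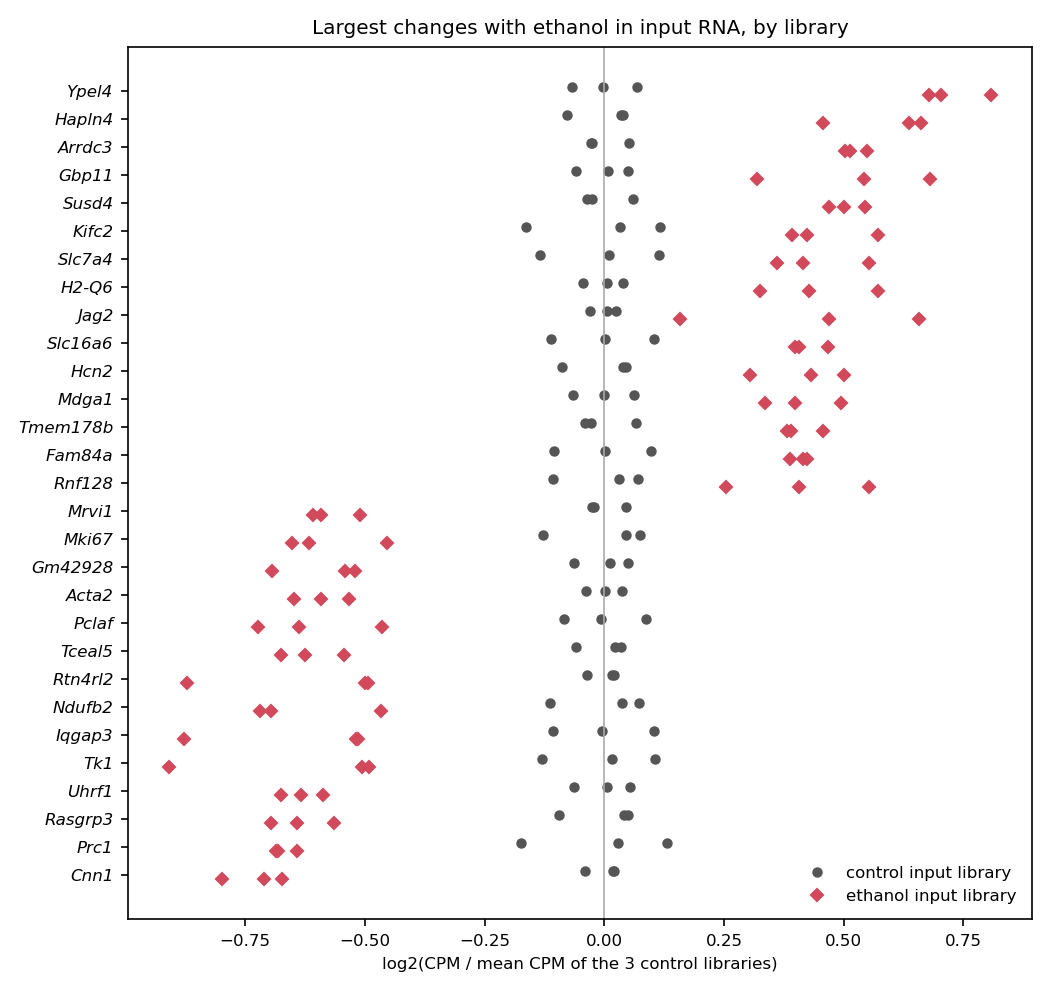
Each of the 6 input libraries for the 15 largest increases and 14 of the 15 largest decreases with ethanol, as log2 of the CPM divided by the mean of the 3 control libraries (grey circles: control, red diamonds: ethanol). In all 29 genes shown the ethanol libraries lie outside the range of the controls, as the choice of the genes required, and *Ypel4* (log2 fold change 0.73) and *Cnn1* (-0.73) stand at the ends.

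Promoters of some of these genes were read from the RefSeq promoter table (GRCm38.p6), which gave a window of 250 bases before to 50 bases after the start for 14340 of the 24495 genes tested. The windows were searched on both strands for the E-box CACGTG, the CCAAT box, the CHR element TTTGAA (a site found in many genes of mitosis) and the CArG box (the site of serum response factor). The CArG box was in 1.37% of all windows, in 2.52% of those of downregulated and in 0.83% of those of upregulated genes. The E-box was in 9.09%, 11.8% and 9.91%, the CCAAT box in 37.8%, 41.9% and 36.5%, and the CHR element in 13.0%, 12.6% and 8.32%. By gene list the shares differed more. The CHR element was in 80% of the windows of 45 mitosis genes, the CArG box in 25% of those of 24 contractile genes, and the E-box in 27.1% of those of 48 lysosomal genes. The E-box was not particular to lysosomal genes, with shares of 28.6% in aminoacyl-tRNA synthetase, 28.1% in FoxO-related and 27.8% in clock genes. The 6 contractile genes with a CArG box, *Cnn2*, *Myl9*, *Vcl*, *Srf*, *Fhl2* and *Actg1*, were downregulated, as were 20 of all 24 contractile genes with a window. Of 36 mitosis genes with a CHR element 27 were downregulated, against 35 of all 45 with a window, and of 13 lysosomal genes with an E-box 7 were upregulated, against 20 of all 48. A match is a description of letters and was not tested as a binding site.

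The 250 bases before the start are printed 5′ to 3′ for the largest increase (*Ypel4*) and decrease (*Cnn1*), for the first gene of the list with the largest share of members called in each direction, among lists whose genes have a window (*Ctsa* of the lysosome and *Prc1* of mitosis), and for a called member that holds the motif of its list (*Myl9*, *Top2a* and *Arsa*). Capitals mark the motifs on either strand. The start is that of RefSeq, and it can lie inside the Ensembl gene interval. For *Ypel4* the bases from 84734058 on lie within the interval given above, as do the last 37 bases for *Cnn1* and the last 44 for *Myl9*.
*Ypel4* (chr2:84733954-84734203, plus strand): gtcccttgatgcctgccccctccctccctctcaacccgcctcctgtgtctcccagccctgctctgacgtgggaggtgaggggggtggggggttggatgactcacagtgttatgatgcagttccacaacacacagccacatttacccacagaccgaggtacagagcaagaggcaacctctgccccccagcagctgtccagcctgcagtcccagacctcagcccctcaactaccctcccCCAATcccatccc
*Cnn1* (chr9:22099003-22099252, plus strand): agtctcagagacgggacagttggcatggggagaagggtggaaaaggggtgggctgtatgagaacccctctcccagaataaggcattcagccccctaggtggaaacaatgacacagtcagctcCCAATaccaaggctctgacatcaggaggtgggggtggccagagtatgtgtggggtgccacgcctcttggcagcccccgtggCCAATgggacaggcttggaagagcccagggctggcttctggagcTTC
*Ctsa* (chr2:164832622-164832871, plus strand): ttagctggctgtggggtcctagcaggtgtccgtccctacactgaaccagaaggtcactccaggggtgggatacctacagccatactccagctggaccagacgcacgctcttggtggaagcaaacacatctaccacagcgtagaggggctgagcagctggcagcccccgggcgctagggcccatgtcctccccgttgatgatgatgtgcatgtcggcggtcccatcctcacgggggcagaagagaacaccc
*Prc1* (chr7:80294201-80294450, plus strand): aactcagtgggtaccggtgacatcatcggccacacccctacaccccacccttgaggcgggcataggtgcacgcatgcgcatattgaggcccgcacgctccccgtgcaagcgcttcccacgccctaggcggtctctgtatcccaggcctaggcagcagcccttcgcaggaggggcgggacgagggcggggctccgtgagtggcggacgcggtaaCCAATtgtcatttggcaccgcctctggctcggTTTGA
*Myl9* (chr2:156775214-156775463, plus strand): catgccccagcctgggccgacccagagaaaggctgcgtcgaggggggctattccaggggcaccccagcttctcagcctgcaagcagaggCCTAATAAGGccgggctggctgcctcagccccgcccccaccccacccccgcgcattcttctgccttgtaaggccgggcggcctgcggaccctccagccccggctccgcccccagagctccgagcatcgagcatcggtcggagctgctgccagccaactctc
*Top2a* (chr11:99024190-99024439, minus strand): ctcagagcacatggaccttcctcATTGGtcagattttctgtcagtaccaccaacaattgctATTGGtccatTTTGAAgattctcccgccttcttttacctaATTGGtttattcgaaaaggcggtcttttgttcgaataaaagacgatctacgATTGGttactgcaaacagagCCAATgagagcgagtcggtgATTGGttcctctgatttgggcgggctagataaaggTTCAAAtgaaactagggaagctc
*Arsa* (chr15:89477425-89477674, minus strand): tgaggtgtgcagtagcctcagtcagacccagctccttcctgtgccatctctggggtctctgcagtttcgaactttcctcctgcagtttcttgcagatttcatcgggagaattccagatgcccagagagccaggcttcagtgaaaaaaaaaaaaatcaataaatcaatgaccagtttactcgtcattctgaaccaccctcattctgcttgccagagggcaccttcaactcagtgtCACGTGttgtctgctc

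The window of *Myl9* held a CArG box from base -161 to base -152 before the start. That of *Top2a* held CHR elements at -179 to -174 and at -23 to -18 beside 6 CCAAT boxes, and in *Prc1* the CHR element ran from -5 to the first base of the transcript, so its last letter is not printed. *Arsa* held the E-box at -16 to -11, whereas none of the 4 motifs was in the printed bases of *Ctsa*, whose own transcript was not called (log2 fold change -0.02, adjusted p = 0.724). *Cnn1* held CCAAT boxes and a CHR element across its start (-3 to 3, only its first letters printed) but no CArG box in this window.

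Genes of mitosis and cytokinesis were downregulated together. Of 55 tested, 43 fell and none was upregulated, and the median log2 fold change over the list was -0.42, against 0.00 over all genes tested. In the list 44 members had all ethanol libraries below all control libraries. *Mki67*, the proliferation antigen Ki-67, went from 13.0, 14.7 and 14.9 CPM to 9.26, 10.4 and 9.03 CPM (log2 fold change -0.57, SE 0.0631, adjusted p = 3.83e-17). *Top2a*, the topoisomerase that untangles chromosomes, fell from 27.8, 25 and 26.2 CPM to 18.2, 19.2 and 17.3 CPM (log2 fold change -0.53, SE 0.0474, adjusted p = 5.81e-26). No library of one group came near the other in these genes. *Cdk1*, the mitotic kinase, and its cyclin *Ccnb1* fell by 0.32 (SE 0.0535) and 0.50 (SE 0.0912) on the log2 scale. The summed level of the list was 389 to 393 CPM in control and 295 to 310.2 CPM in ethanol libraries.

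Genes of DNA replication followed the same direction with smaller changes. In this list 33 of 50 members were downregulated and none upregulated, with a median of -0.26. *Pcna*, the sliding clamp of the replication fork, had 59.5, 57.5 and 60.5 CPM in control and 49.1, 49.4 and 49.4 CPM with ethanol (log2 fold change -0.26, SE 0.0325, adjusted p = 1e-13). The helicase subunits *Mcm2* and *Mcm3* fell by 0.34 and 0.45 on the log2 scale, and the ribonucleotide reductase subunits *Rrm1* and *Rrm2* by 0.33 and 0.32. Replication-dependent histone genes, with 6 of 56 downregulated and none upregulated, were mostly below 1 CPM in these libraries, and their close copies make the counts uncertain. *Hist1h4i* fell by 0.37 (SE 0.0621) on the log2 scale, whereas the abundant linker histone *Hist1h1c* had 301, 314 and 303 CPM and 311, 318 and 321 CPM, which overlapped.

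Regulators of the G1 phase moved both ways, 8 upregulated and 9 downregulated of 25. *Ccnd1*, cyclin D1, which drives cells through G1, was abundant and fell from 2603, 2599 and 2633 CPM to 2036, 2229 and 2236 CPM (log2 fold change -0.27, SE 0.0210, adjusted p = 3.24e-34). Its kinase partner *Cdk4* fell by 0.19 on the log2 scale and *Ccnd3* by 0.19. The antiproliferative genes *Btg2* and *Btg1* rose by 0.21 and 0.18 on the log2 scale, and the pocket protein gene *Rb1* by 0.12. *Cdkn1a*, which encodes the CDK inhibitor p21, had 1153, 1158 and 1132 CPM in control and 1076, 1122 and 1114 CPM with ethanol and did not pass the test (log2 fold change -0.06, SE 0.0217, adjusted p = 0.0611). *Cdkn1b* did not pass either (log2 fold change 0.06, SE 0.0275).

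Contractile genes and targets of serum response factor (SRF) were downregulated together, and several of them are abundant transcripts. Of 33 tested, 24 were downregulated and 2 upregulated, and the median log2 fold change was -0.23. The list summed to 17200 to 17440 CPM in control and 14350 to 14940 CPM in ethanol libraries. *Myl9*, a myosin light chain, fell from 372, 361 and 375 CPM to 268, 273 and 256 CPM (log2 fold change -0.47, SE 0.0229, adjusted p = 2.24e-91). *Tagln* (SM22), *Mylk* (myosin light chain kinase) and *Lmod1* fell by 0.52, 0.41 and 0.48 on the log2 scale. The transcription factor gene *Srf* itself went from 79.2, 85.7 and 81.5 CPM to 64.8, 67.6 and 61.3 CPM (log2 fold change -0.35, SE 0.0288, adjusted p = 3.31e-30), and the cytoplasmic actins *Actb* and *Actg1* fell by 0.28 and 0.17. The 2 upregulated members were *Ctgf*, a secreted matricellular protein (log2 fold change 0.16), and *Mkl2*, a coactivator of SRF (0.09). Of 17 mural and endothelial markers only *Kdr* was called, downward, and *Pdgfrb* of pericytes had 139, 140.5 and 142 CPM and 140.5, 136 and 138 CPM.

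Genes of ribosome production, RNA processing and translation were downregulated in part and by less. Of 61 Myc and nucleolar genes 33 fell and 1 rose, with a median of -0.11. *Myc* had 27.3, 28.3 and 26.6 CPM in control and 24.2, 23.2 and 23.6 CPM with ethanol (log2 fold change -0.21, SE 0.0444, adjusted p = 4.64e-05), and the box C/D proteins *Nop56*, *Nop58* and *Fbl* fell by 0.23, 0.26 and 0.21. Splicing factors fell in 29 of 50 cases and rose in 1, with a median of -0.10. The SR protein genes *Srsf3*, at 67.9, 66.4 and 64.2 CPM in control and 55.7, 52.4 and 51.0 CPM with ethanol (log2 fold change -0.32, SE 0.0313, adjusted p = 9.08e-22), *Srsf7* (-0.36) and *Srsf1* (-0.27) fell most clearly, together with *Snrnp70* of the U1 particle (-0.28). The exception was *Ptbp2*, a neuronal splicing regulator, which rose by 0.25 on the log2 scale. Among translation factors 17 of 57 fell and 5 rose, and in the fit over 18 libraries 8 fell and 3 rose. For comparison, 27.3% of all genes of at least 100 CPM were downregulated and 18.5% upregulated. Among genes of 10 to 100 CPM the shares were 12.7% and 14.3%. The helicase gene *Eif4a1* fell from 399, 397 and 393 CPM to 349, 342 and 337 CPM (log2 fold change -0.21, SE 0.0227, adjusted p = 4.48e-18), whereas *Eef2* had overlapping groups at 3897, 3974 and 3886 CPM and 3959, 3920 and 3951 CPM. Of 22 aminoacyl-tRNA synthetase genes 7 fell and 1 rose, and in the fit over 18 libraries 3 fell and none rose.

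Cytosolic ribosomal protein genes had small changes, 33 of 79 downregulated and none upregulated, with a median of -0.05. The most precise was *Rplp1*, which fell by 0.13 (SE 0.0221, adjusted p = 4.51e-07) on the log2 scale, while *Rpl10a*, the endogenous gene of the tagged protein, did not pass (-0.05, adjusted p = 0.0975). Reads of the transgene and of *Rpl10a* were not told apart. Short transcripts as a whole were more often downregulated. In the fifth of genes with the shortest transcripts (up to 2090 bases, at least 5 CPM) 22.9% were downregulated and 9.36% upregulated, against 10.9% and 18.9% in the fifth with the longest. With trends of GC content and length removed from each library, 16 cytosolic ribosomal protein genes were downregulated in place of 33, and 14 proteasome genes in place of 22. In the fit over all 18 libraries the counts were 3 and 5.

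Nuclear-encoded subunits of the respiratory chain were downregulated in 47 of 77 cases and upregulated in none, with a median of -0.09. *Ndufa13* of complex I fell from 189.7, 198 and 191 CPM to 168.1, 164.2 and 166.5 CPM (log2 fold change -0.22, SE 0.0233, adjusted p = 5.52e-18), *Cycs*, cytochrome c, by 0.26 and *Cox6a1* of complex IV by 0.16. With GC and length trends removed 35 fell and 1 rose, and in the fit over 18 libraries 22 fell. Mitochondrial ribosomal protein genes fell in 17 of 77 cases and rose in 1. *Mrps6* had 121, 118 and 116 CPM in control and 97.8, 97.9 and 99.6 CPM with ethanol (log2 fold change -0.26, SE 0.0259, adjusted p = 1.49e-21). Of the mRNAs of the mitochondrial genome 6 of 13 were upregulated and none downregulated. With DESeq2 4 of these mRNAs were upregulated, and in the fit over 18 libraries only 1. Their changes were small and their libraries uneven. *mt-Co1* had 7119, 6245 and 6498 CPM in control and 6863, 7351 and 6866 CPM with ethanol, which overlapped (log2 fold change 0.09, SE 0.0594, adjusted p = 0.498), and *mt-Cytb* rose by 0.09 (SE 0.0202). Of the other called mRNAs, *mt-Co2*, *mt-Co3* and *mt-Atp6* had 5.17 to 10.9 CPM on average, and pairs that matched several places were left out, and nearly all pairs of *mt-Nd6* lay on the opposite strand, so these 4 are uncertain.

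**Figure D3:**
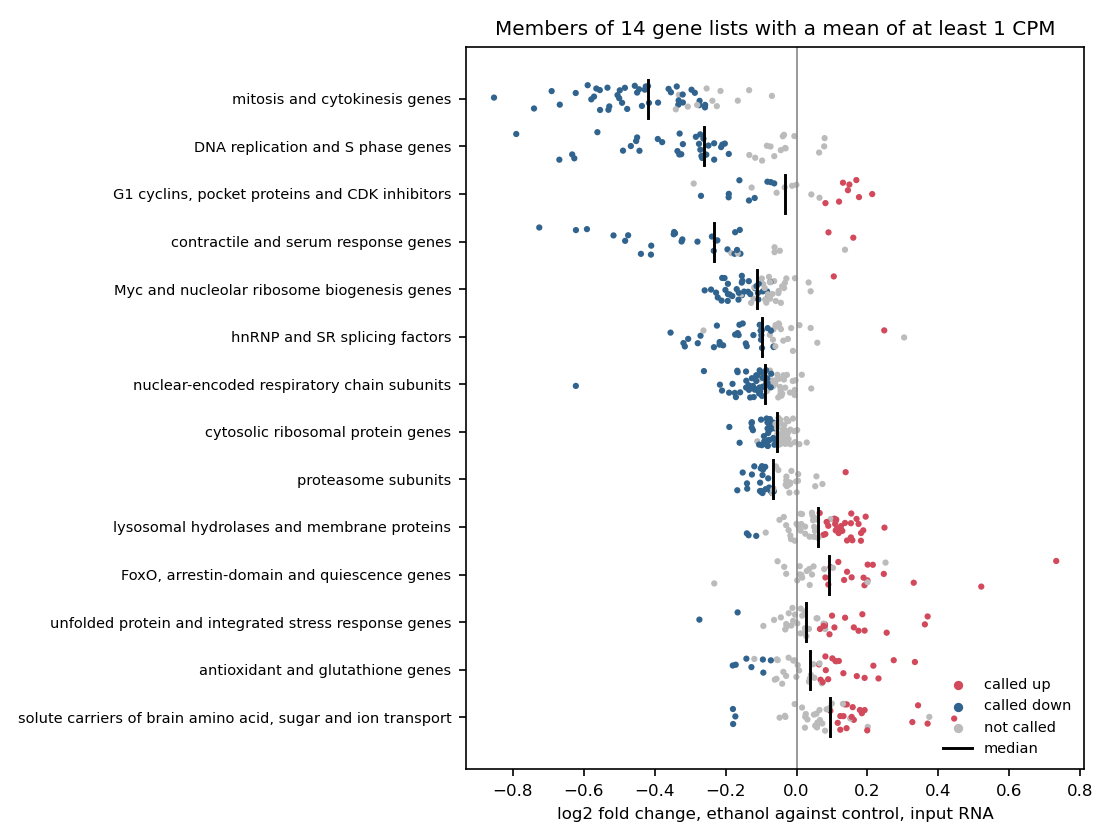
Log2 fold changes of the members of 14 gene lists with a mean of at least 1 CPM in input RNA (1 point a gene, red: upregulated, blue: downregulated, grey: not called, black bar: median of the points shown). All mitosis genes shown lie left of 0, G1 regulators lie on both sides, and lysosomal and transporter genes lie mostly to the right.

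Chaperones and proteasome subunits were downregulated in part. Of 37 heat shock proteins and subunits of the TRiC chaperonin 17 fell and 1 rose. *Stip1*, which links HSP70 and HSP90, fell from 212, 210.4 and 219 CPM to 181, 178 and 179.8 CPM (log2 fold change -0.25, SE 0.0232, adjusted p = 1.36e-24), and *Hspa4*, *Cct3* and the constitutive HSP70 gene *Hspa8* by 0.20, 0.20 and 0.10. The heat-inducible *Hspa1b* had overlapping groups at 6.07, 6.45 and 7.44 CPM and 6.03, 6.51 and 6.62 CPM. Of 45 proteasome subunits 22 fell and 1 rose. *Psmc4* of the regulatory particle fell by 0.15 (SE 0.0259) on the log2 scale, while *Psma1* had means of 66.6 CPM in both groups.

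Lysosomal genes were the list with the most upregulated members, 28 of 61, with 3 downregulated and a median of 0.06. *Arsa*, which degrades sulfatides of myelin, rose from 94.2, 95.7 and 96.7 CPM to 110.1, 117 and 114 CPM (log2 fold change 0.25, SE 0.0261, adjusted p = 5.83e-19). The glycosidases *Man2b1* and *Glb1* rose by 0.18 and 0.18 on the log2 scale, the cholesterol transporter *Npc1* by 0.20, and the membrane protein *Lamp2* by 0.15. The protease *Ctsd*, the membrane protein *Lamp1* and *Tfeb*, the transcription factor of lysosome formation, did not pass, with log2 fold changes of 0.05, 0.01 and 0.02 and adjusted p of 0.0848, 0.897 and 0.909. Subunits of the proton pump of the lysosome did not move as one, with 2 upregulated and 3 downregulated of 23. Of 54 genes of autophagy and mTORC1 control 14 rose and 1 fell. *Sesn3*, an inhibitor of mTORC1, rose from 292, 285 and 289.6 CPM to 335, 349.9 and 339 CPM (log2 fold change 0.24, SE 0.0228, adjusted p = 2.26e-23), and the kinase gene *Ulk2* by 0.17.

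FoxO factors, arrestin-domain genes and genes linked to quiescence were upregulated in 16 of 36 cases and downregulated in none, with a median of 0.09. The list was written with the increases of *Ypel4* and *Arrdc3* already known, so its count is not independent of them. *Txnip*, an arrestin-domain protein that inhibits thioredoxin and glucose uptake, rose from 70.5, 74.5 and 74.8 CPM to 90.8, 92.6 and 93.1 CPM (log2 fold change 0.33, SE 0.0277, adjusted p = 7.63e-30). *Foxo3* rose by 0.10 (SE 0.0231) on the log2 scale, and *Ypel2* and *Ypel3* rose by 0.22 and 0.19. *Klf15*, a target of glucocorticoids, had overlapping groups (log2 fold change 0.05, adjusted p = 0.515).

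In the unfolded protein and integrated stress response list 15 of 42 genes rose and 2 fell. *Atf5*, a transcription factor of the integrated stress response, had 160.9, 166.5 and 164.4 CPM in control and 212, 215 and 209 CPM with ethanol (log2 fold change 0.37, SE 0.0233, adjusted p = 3.1e-53), and *Ddit3*, which encodes CHOP, had 97.5, 95.6 and 95.1 CPM and 114, 113 and 117 CPM (log2 fold change 0.25, SE 0.0260, adjusted p = 5.35e-20). *Trib3* rose by 0.36 on the log2 scale, and *Atf4* by 0.07, and both calls were lost in some fits that left out 1 library. *Hspa5*, the chaperone BiP of the endoplasmic reticulum, had overlapping groups at 618, 602 and 606 CPM and 618, 609 and 634 CPM (log2 fold change 0.03, adjusted p = 0.501). The 2 that fell, *Psat1* (log2 fold change -0.27) and *Phgdh* (-0.17), make serine.

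Antioxidant and glutathione genes rose in 16 and fell in 7 of 45 cases. *Srxn1*, sulfiredoxin, which repairs peroxiredoxins, rose from 85.4, 90.9 and 88.0 CPM to 109.8, 110.3 and 113 CPM (log2 fold change 0.33, SE 0.0264, adjusted p = 1.48e-33). *Gclc*, the catalytic subunit of the first step of glutathione synthesis, went from 87.9, 85.5 and 82.0 CPM to 100.6, 99.2 and 100.1 CPM (log2 fold change 0.23, SE 0.0269, adjusted p = 1.67e-15), and its partner *Gclm* rose by 0.11. *Nfe2l2*, which encodes their activator NRF2, and *Hmox1* rose by 0.07 and 0.06 on the log2 scale, and *Nqo1* did not pass (0.11, adjusted p = 0.436). The mitochondrial peroxiredoxin *Prdx3* and thioredoxin *Txn2* fell by 0.13 and 0.14 on the log2 scale. Of 18 tested genes of ethanol, acetaldehyde and acetate metabolism 2 rose and 7 fell, all by little. Catalase, *Cat*, had 143, 143 and 140.2 CPM in control and 152.7, 149.3 and 149.1 CPM with ethanol (log2 fold change 0.08, SE 0.0241, adjusted p = 0.00659), and the mitochondrial aldehyde dehydrogenase *Aldh2* rose by 0.07 (SE 0.0232). The alcohol dehydrogenase *Adh5* fell by 0.08 (SE 0.0238) on the log2 scale, and *Aldh3a1* and *Aldh3b1* by 0.22 and 0.19. The calls of *Cat*, *Aldh2*, *Adh5*, *Nfe2l2* and *Hmox1* were lost in some fits that left out 1 library.

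**Figure D4:**
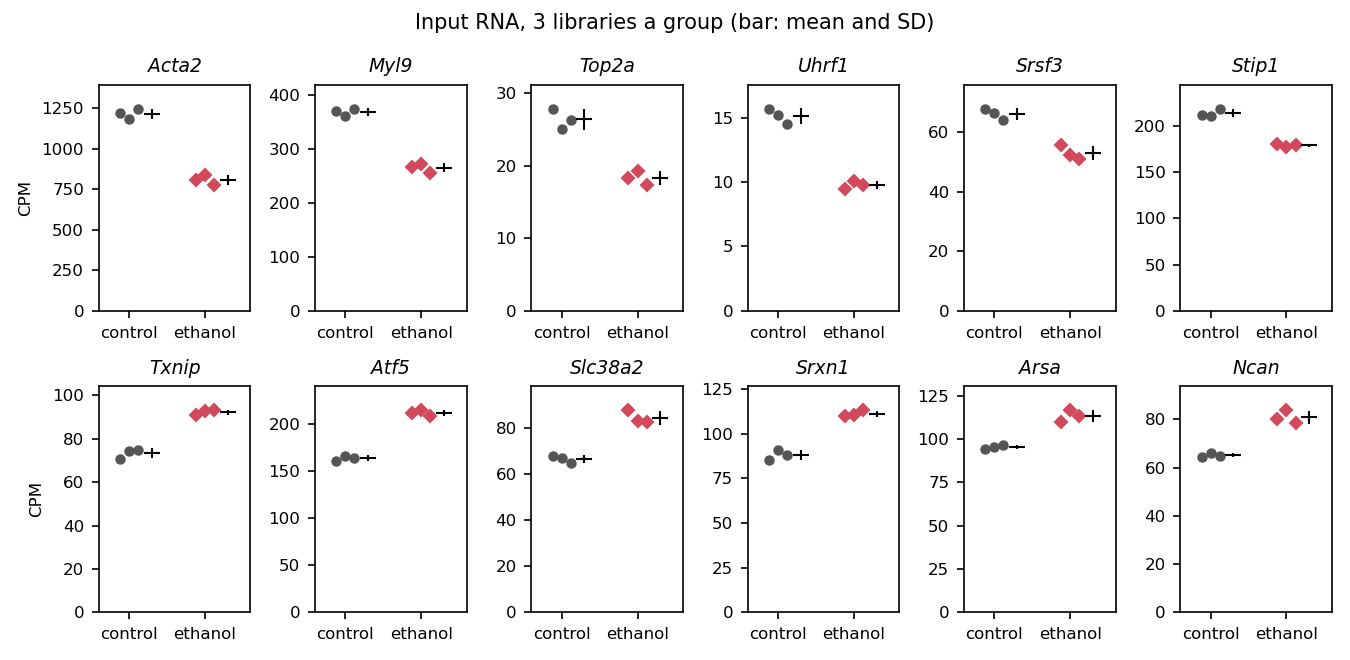
CPM of 12 genes in the 3 control (grey circles) and 3 ethanol (red diamonds) input libraries, each on its own axis from 0, with the mean and SD of each group in black. The groups do not overlap in any of the 12 genes: *Acta2*, *Myl9*, *Top2a*, *Uhrf1*, *Srsf3* and *Stip1* are lower and *Txnip*, *Atf5*, *Slc38a2*, *Srxn1*, *Arsa* and *Ncan* higher with ethanol. The 12 were picked from called genes, so the lack of overlap is not a separate result.

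Lipid and sugar metabolism changed in single genes more than as a whole. Of 40 cholesterol genes 13 fell and 4 rose. The synthesis enzyme *Hsd17b7* fell by 0.20 on the log2 scale, whereas *Srebf2*, a transcription factor of sterol synthesis, did not pass (-0.01, adjusted p = 0.816). The efflux transporter gene *Abca1* rose by 0.10 on the log2 scale although its groups overlapped. Of 35 genes of glycolysis and glycogen 10 fell and 6 rose. *Hk2*, hexokinase 2, fell from 32.6, 34 and 33.5 CPM to 26.6, 29.5 and 26.9 CPM (log2 fold change -0.27, SE 0.0411, adjusted p = 3.19e-09), and *Slc2a1*, the glucose transporter GLUT1, rose by 0.14. *Ldha* had 258, 253 and 259 CPM in control and 262, 254 and 255 CPM with ethanol, without a difference that passed.

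Solute carriers were upregulated in 19 of 54 cases and downregulated in 3, with a median of 0.09. *Slc38a2*, a neutral amino acid transporter that answers to amino acid supply, rose from 68.1, 67.1 and 64.8 CPM to 87.9, 83.0 and 82.8 CPM (log2 fold change 0.34, SE 0.0285, adjusted p = 2.54e-30). *Slc3a2*, the shared heavy chain of several amino acid exchangers, rose by 0.16 on the log2 scale, the cystine transporter *Slc7a11* by 0.19, the serine transporter *Slc1a4* by 0.14, and the glycine transporter *Slc6a9* by 0.33. The taurine transporter *Slc6a6* went from 382, 382 and 383 CPM to 438, 425 and 434 CPM (log2 fold change 0.18, SE 0.0226, adjusted p = 4.03e-13). The arginine transporter *Slc7a1* (log2 fold change -0.18), *Slc7a8* (-0.18) and the thyroid hormone transporter *Slco1c1* (-0.17) fell. Of 40 glutamate and GABA receptor subunits only 19 had at least 1 CPM. The AMPA receptor gene *Gria3* rose by 0.09 on the log2 scale and *Grm8* fell by 0.31, and in all 3 rose and 1 fell.

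Astrocyte markers were upregulated in 11 and downregulated in 6 of 32 cases, with a median of 0.06. The glutamate transporters *Slc1a3* (GLAST), at 231, 248 and 245 CPM in control and 268, 261 and 279 CPM with ethanol (log2 fold change 0.16, SE 0.0230, adjusted p = 7.32e-10), and *Slc1a2* (GLT-1, log2 fold change 0.17) rose, as did the water channel *Aqp4* (0.16) and the mitochondrial carrier *Slc25a18* (0.30). *Gfap*, the intermediate filament of astrocytes, had 196, 203 and 205 CPM and 196, 188 and 189.9 CPM and fell by 0.07 on the log2 scale (adjusted p = 0.0129), a call that did not hold with single libraries left out. *Aldh1l1*, whose promoter drives the ribosome tag, fell from 191, 193 and 198 CPM to 169, 182 and 180.4 CPM (log2 fold change -0.13, SE 0.0233, adjusted p = 9.38e-07). The gap junction gene *Gja1* had overlapping groups (log2 fold change 0.01, adjusted p = 0.883).

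Markers of other cells moved in a few genes each. Of 20 microglia and macrophage markers 4 rose and none fell. *Csf1r* had 24.2, 22.9 and 24.0 CPM in control and 29.6, 26.3 and 26.6 CPM with ethanol (log2 fold change 0.22, SE 0.0443, adjusted p = 2.48e-05), and *Ptprc* rose by 0.26, while *Aif1* overlapped (-0.08, adjusted p = 0.729). *P2ry12* had a mean of 0.0829 CPM. Of 18 oligodendrocyte lineage markers 3 rose and 1 fell, and the list summed to 275 to 298 CPM in control and 269.9 to 280.1 CPM in ethanol libraries. *Pdgfra*, also a fibroblast gene, had 1.42, 1.37 and 1.49 CPM and 2.21, 1.67 and 2.46 CPM (log2 fold change 0.56, SE 0.155, adjusted p = 0.00333), and *Olig1* fell by 0.19. Neuronal markers rose in 3 and fell in 1 of 18 cases, and *Stmn2* fell by 0.13 on the log2 scale. Of 20 genes of motile cilia 3 fell, among them *Rsph1* (log2 fold change -0.31), while *Foxj1* had 365, 384 and 373 CPM and 381, 367 and 362 CPM. Of 16 meningeal fibroblast markers 1 rose and 1 fell. *Xist*, the RNA of the inactive X chromosome, had 0.995, 1.86 and 1.84 CPM in control and 3.09, 2.32 and 3.10 CPM with ethanol (log2 fold change 0.85, SE 0.139, adjusted p = 5.45e-08), and all 3 ethanol libraries were higher. The Y-linked genes *Ddx3y*, *Uty*, *Kdm5d* and *Eif2s3y* did not pass, with log2 fold changes of 0.07, 0.20, -0.06 and -0.03. The part of the mix of cells or sexes in the other results was not tested.

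Matrix genes moved in both directions. In a list of lecticans, link proteins, other proteoglycans, hyaluronan synthases and matricellular proteins 8 of 35 genes rose and 3 fell. The lecticans of brain, *Ncan* (neurocan) and *Bcan* (brevican), rose. *Ncan* had 64.5, 66.0 and 65.0 CPM in control and 80.05, 83.8 and 78.6 CPM with ethanol (log2 fold change 0.31, SE 0.0289, adjusted p = 2.78e-24), and *Bcan* rose by 0.24 (SE 0.0233). The larger lectican *Vcan* (versican) fell by 0.15 (SE 0.0301) on the log2 scale, and the matrix glycoprotein *Tnc* fell by 0.06. *Sparcl1*, an astrocyte protein that favours synapses, rose from 48.9, 50.7 and 50.6 CPM to 59.9, 60.1 and 58.9 CPM (log2 fold change 0.25, SE 0.0323, adjusted p = 7.55e-13). Of 47 enzymes that build or sulfate glycosaminoglycan chains 9 rose and 1 fell, with *Dsel* (log2 fold change 0.24), *Hs2st1* (0.12) and *Ext2* (0.11) the clearest, while the chondroitin enzymes *Xylt1* and *Chsy1* did not pass (-0.08, adjusted p = 0.0939 and -0.07, adjusted p = 0.184).

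Collagens rose in 6 and fell in 3 of 44 cases, beside 14.3% and 12.7% of genes of 10 to 100 CPM. Only 29 of the 44 had a mean of at least 1 CPM. The basement membrane chains *Col4a5* and *Col4a6* rose by 0.18 and 0.19 on the log2 scale and *Col23a1* by 0.25, whereas the abundant *Col4a1* had overlapping groups at 749, 733 and 746 CPM and 724, 716 and 761 CPM. Of 39 protease and inhibitor genes 8 rose and 6 fell. *Mmp9*, a gelatinase, fell from 14.6, 14.1 and 15.9 CPM to 11.2, 8.72 and 11.1 CPM (log2 fold change -0.53, SE 0.0615, adjusted p = 2.43e-15), and *Adamts1*, which cleaves lecticans, by 0.24. *Mmp11* rose by 0.28 on the log2 scale. The plasminogen activators *Plat* and *Plau* did not pass (log2 fold change 0.04, adjusted p = 0.349 and -0.14, adjusted p = 0.194). Integrins and laminins rose in 8 and fell in 3 of 41 cases, with *Itgb8* (log2 fold change 0.19), *Itgb5* (0.12) and dystroglycan, *Dag1* (0.12), among those that rose. Of 66 axon guidance genes, 57 of them at 1 CPM or more, 9 rose and 6 fell, near or below the shares of genes of 10 to 100 CPM. *Sema7a* fell from 21.9, 21.0 and 23.3 CPM to 16.7, 17.2 and 15.3 CPM (log2 fold change -0.43, SE 0.0508, adjusted p = 7.12e-15), and *Sema6d* and the semaphorin receptor *Nrp1* rose by 0.26 and 0.20.

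In the TGF-beta and BMP list 16 of 44 genes rose and 5 fell, with a median of 0.06. The inhibitors of differentiation *Id2* and *Id3*, targets of BMP signalling, rose. *Id3* had 267, 270.3 and 269 CPM in control and 311, 291 and 295 CPM with ethanol (log2 fold change 0.15, SE 0.0229, adjusted p = 1.97e-09), and *Id2* rose by 0.26. The receptor *Bmpr1a* and the ligand *Tgfb2* rose by 0.18 and 0.11 on the log2 scale, while the ligand *Bmp4* fell by 0.18. Of 34 Notch pathway genes 6 rose and 1, *Hey2* (log2 fold change -0.39), fell. *Notch1* and the ligand *Dll1* did not pass (log2 fold change 0.03, adjusted p = 0.607 and 0.12, adjusted p = 0.562). Growth factors, their receptors and feedback genes rose in 7 and fell in 8 of 50 cases, near the shares among genes of 10 to 100 CPM (14.3% and 12.7%). *Igfbp5*, which binds insulin-like growth factors, fell from 480.1, 506 and 489.9 CPM to 418, 427 and 406 CPM (log2 fold change -0.24, SE 0.0225, adjusted p = 1.71e-23), and *Fgf2* rose by 0.17.

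The immediate early genes *Fos* and *Egr1* differed between dishes of a group. *Fos* had 40.2, 47.0 and 29.5 CPM in control and 42.9, 54.5 and 37.2 CPM with ethanol (log2 fold change 0.21, SE 0.252, adjusted p = 0.735), and *Egr1* 166.9, 195 and 138 CPM and 213, 257 and 193 CPM (log2 fold change 0.41, SE 0.189, adjusted p = 0.320). In both, replicate 5 was the highest and replicate 6 the lowest library of its group. Of 27 such genes 3 rose and 3 fell, among them *Maff*, from 138, 142 and 138 CPM to 104, 114 and 112 CPM (log2 fold change -0.34, SE 0.0250, adjusted p = 2.27e-38). Of 22 clock genes 8 rose and 2 fell. *Dbp*, an output of the clock, rose by 0.20 (SE 0.0296) on the log2 scale, *Bhlhe40* by 0.22 and *Nr1d2* by 0.18, whereas the core genes *Arntl* and *Per1* did not pass (0.01, adjusted p = 0.916 and 0.02, adjusted p = 0.906).

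Chemokine, cytokine and NF-kB genes fell in 13 and rose in 8 of 53 cases. Those that fell included the chemokines *Cxcl10*, from 156.3, 155.5 and 157.9 CPM to 121, 128 and 129.9 CPM (log2 fold change -0.31, SE 0.0243, adjusted p = 4.05e-34), *Cxcl1* (-0.27) and *Ccl2* (-0.23), and the cytokine *Il1b* (-0.33). The Toll-like receptor gene *Tlr4* rose by 0.25 on the log2 scale. *Nfkbia* had overlapping groups, and complement *C3* varied between ethanol dishes, with 3418, 3517 and 3422 CPM in control and 3968, 3491 and 4088 CPM with ethanol (log2 fold change 0.16, SE 0.0699, adjusted p = 0.295). Interferon and antigen presentation genes rose in 9 and fell in 6 of 42 cases. Those that rose included the class I histocompatibility genes *H2-K1*, from 1594, 1643 and 1608 CPM to 1876, 1728 and 1947 CPM (log2 fold change 0.20, SE 0.0214, adjusted p = 3.67e-17), and *H2-T23* (0.23), the peptide transporter gene *Tap1* (0.12) and *B2m*, the light chain of class I molecules (0.10). *H2-K1* and *H2-T23* are class I genes like *H2-Q6*, and pairs that matched several places were left out, so their levels are uncertain too. Those that fell included the interferon-induced genes *Isg15*, from 111, 97.7 and 107 CPM to 85.3, 89.0 and 91.6 CPM (log2 fold change -0.25, SE 0.0267, adjusted p = 8.83e-18), and *Mx1* (-0.41), while *Ifit1* did not pass. In the fit over 18 libraries none of the list was downregulated.

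Of 68 chromatin genes 8 rose and 12 fell, beside 14.3% and 12.7% of genes of 10 to 100 CPM. Beside *Uhrf1*, the maintenance DNA methyltransferase *Dnmt1* fell from 49.8, 50.2 and 50.8 CPM to 42.7, 43.3 and 44.1 CPM (log2 fold change -0.21, SE 0.0345, adjusted p = 3.82e-08), while the de novo enzyme *Dnmt3a* had overlapping groups (0.02, adjusted p = 0.815). The deacetylases *Hdac11* and *Hdac5* rose by 0.31 and 0.18 on the log2 scale, and *Hdac1* and *Hdac2* fell by 0.15 and 0.11. The remodeller *Chd3* fell by 0.11 on the log2 scale. Of 27 nuclear and imprinted noncoding RNAs 6 rose and 2 fell. *Malat1* had 57.5, 60.8 and 59.4 CPM and 65.7, 76.3 and 78.4 CPM (log2 fold change 0.31, SE 0.0326, adjusted p = 9.5e-15). The imprinted *Meg3* went from 2.50, 2.43 and 2.90 CPM to 2.10, 1.76 and 1.26 CPM (log2 fold change -0.61, SE 0.139, adjusted p = 0.000242), and *Neat1* did not pass (0.02, adjusted p = 0.693).

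The same contrast could be read in the IP fraction of other dishes, replicates 1 to 3 of each treatment. These share no dish or library with the input comparison, but their RNA was pulled down with tagged ribosomes. Of the 30 genes with the largest changes in input, 29 had the same sign there and 27 were called in the same direction. The exceptions were *Rnf128* (log2 fold change 0.41 in input and 0.04 in IP), *Rtn4rl2* (-0.61 and 0.06) and *Tk1* (-0.63 and -0.24). Over all calls, 951 genes were upregulated in both, 53.8% of those upregulated in input and 58.6% of the 1623 upregulated in these IP libraries. In both, 961 genes were downregulated, 50.4% and 70.0% of the respective totals. Of all 24495 genes tested, 6.63% were upregulated and 5.6% downregulated in these IP libraries. The sign was the same there in 96.1% of all genes upregulated in input and in 95% of those downregulated. No gene was upregulated in input and downregulated in IP, and 2 genes were downregulated in input and upregulated in IP. Mitosis genes had a median of -0.31 in IP with 31 of 55 downregulated, contractile genes -0.28 with 25 of 33, and lysosomal genes 0.09 with 26 of 61 upregulated. Mitochondrial mRNAs had a median of -0.16, with 1 of 13 called, downward. Mitochondrial genes took only 0.121% to 0.155% of the counted pairs in these IP libraries, against 2.36% to 2.65% in input. The source of these pairs in IP was not tested.

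**Figure D5:**
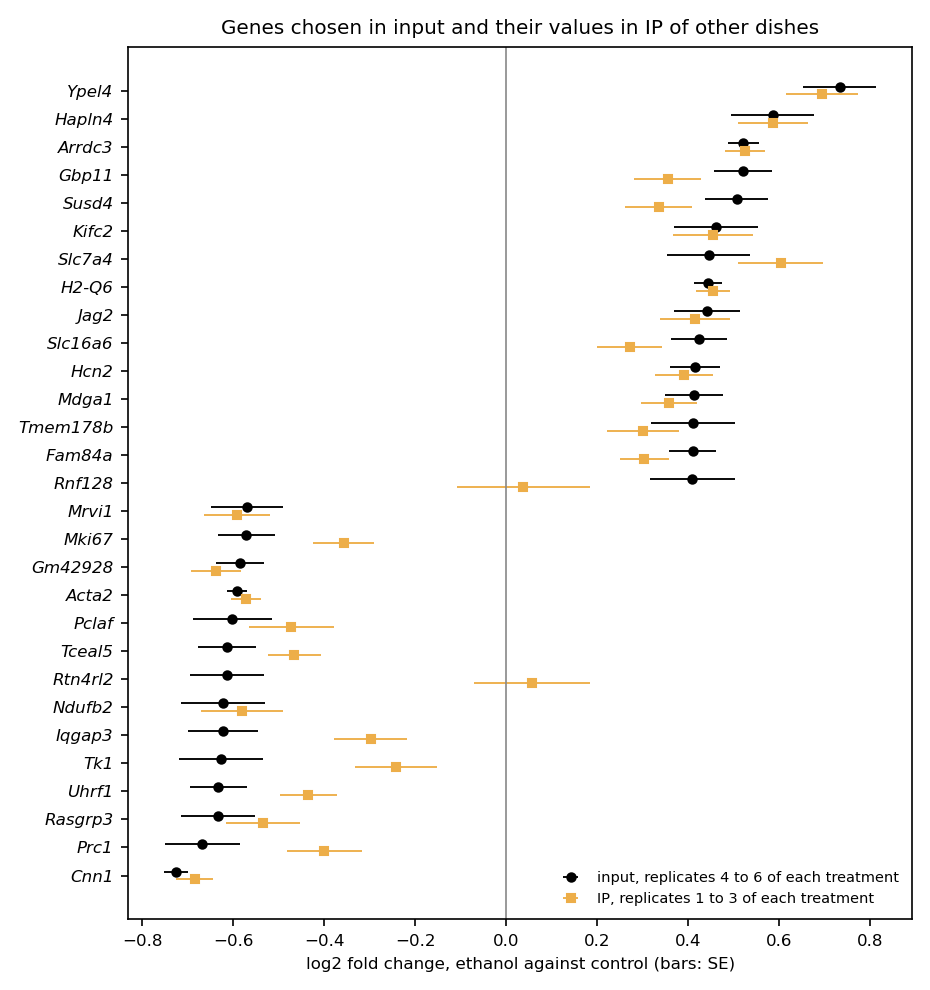
Log2 fold changes with ethanol (bars: SE) of 29 of the 30 genes chosen for the largest changes in input (black circles, replicates 4 to 6) beside their values in IP RNA of other dishes (yellow squares, replicates 1 to 3). All shown but *Rtn4rl2* (log2 fold changes -0.61 and 0.06) lie on the same side of 0 in both. Some cell division genes, *Tk1*, *Iqgap3*, *Prc1* and *Mki67*, lie nearer to 0 in IP. The genes were chosen by their input values, and none of the 30 passed the test of a difference between input and IP.

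Whether the ethanol effect differed between the fractions was tested over the 6 dishes that gave an input and an IP library each (12 libraries), with the dish as a block. The effect was higher in input than in IP in 8 genes (0.0327%) and lower in input in 94 genes (0.384%), and in none of the 30 genes above did it pass. This small count depended on the setting. With RLE size factors it was 14 higher and 65 lower, with DESeq2 10 and 53, with GC and length trends removed 31 and 20, and without the dish block over all 18 libraries edgeR called 0 genes, with 1459 at an unadjusted p below 0.05. *Meg3* fell in input (-0.61) while its log2 fold change was 0.70 in IP of the same dishes and 0.89 in IP of the others. *mt-Rnr1*, the mitochondrial 12S ribosomal RNA, had 285, 228 and 284 CPM in control and 291, 300.4 and 289 CPM with ethanol in input, and its log2 fold change was 0.14 in input and -0.25 in IP. Mitochondrial genes took only 0.114% to 0.143% of the counted pairs in IP of these dishes. *Tnrc18* fell in input (-0.17) while its log2 fold change was 0.01 in IP. *Nlgn2*, a synaptic adhesion protein, and *Prrc2b* had log2 fold changes of -0.00464 and -0.04 in input, where they did not pass, and of 0.20 and 0.13 in IP of the same dishes.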

How the data were processed

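RNA was sequenced as pairs of reads from stranded total RNA libraries of astrocyte culture dishes, depleted of ribosomal RNA. The authors deposited raw counts of uniquely mapped read pairs per gene, made with Trimmomatic, STAR and SAMtools on GRCm38 (versions not given in the sources used here). These counts do not use strand, and counts per strand of each library were used for the alternative by strand. Each input library had 74706940 to 94032838 counted pairs, so counting error is small for genes of 5 CPM or more and large below 1 CPM. Genes with a total of at least 10 counts over the 18 libraries were tested with edgeR 4.0.16 (quasi-likelihood F test, TMM) in R 4.3.3, 3 control against 3 ethanol input libraries, with Benjamini-Hochberg adjustment over 24495 genes and a threshold of 0.05. The difference between input and IP was fitted with the dish as a block. Adjusted p-values are from edgeR throughout. Mean ± SD refers to 3 libraries a group. SE comes from the edgeR fit to these libraries, in which part of the spread is pooled over genes. The procedure was tested on simulated counts drawn independently for each library, which cannot speak to effects of chamber or shared culture. Alternatives used DESeq2 1.42.0 and other settings of edgeR. No column of the files lacked a sample. The gene lists and the contrast were chosen with earlier results of these data known. Named genes were the 15 largest increases and decreases among called genes of at least 5 CPM without overlap, fixed key genes of each list, the 3 called members of each list with the lowest adjusted p, and the 5 lowest adjusted p for a difference between input and IP. Other list members named in the text were chosen after their values were seen, as were the promoters of *Myl9*, *Top2a* and *Arsa*. Results for some genes that meet these rules are not reported here. No 2 libraries agreed within sampling noise, so each counted as 1 sample. Over genes as a whole, deviations of same-numbered control and ethanol dishes hardly correlated, so the numbers were not used as pairs. *Fos* and *Egr1* did have the same order of replicates in both groups, and a shared order of handling was not tested.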

Additional observations from a re-analysis of the deposited data

Results flagged for a closer look

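In 12 of the named genes the log2 fold change with ethanol differed between input and IP of the same dishes by the test of the difference itself (edgeR, dish as block). The largest difference, input minus IP, was -1.32 for the imprinted RNA *Meg3* (-0.61 in input and 0.70 in IP). For *mt-Rnr1*, of the mitochondrial genes that were scarce in IP, it was 0.38 (0.14 and -0.25), the 1 difference that was higher in input. For *Mmp9* it was -0.44 (-0.53 and -0.10), and this call was lost without any 1 of the 6 dishes. For *Gnas*, which encodes the stimulatory G protein alpha subunit, it was -0.40 (-0.17 and 0.19), and -0.07 without a call when only counts of its own strand were used. For the matrix genes *Col1a1*, *Lama5* and *Col4a5* it was -0.21, -0.14 and -0.14, for the remodeller *Chd3* -0.19, for the taurine transporter *Slc6a6* -0.15, for *Nlgn2* -0.22, for *Tnrc18* -0.21 and for *Prrc2b* -0.18. Without the dish block, in the fit over all 18 libraries, none of the 12 passed in edgeR. With GC and length trends removed, *Col1a1*, *Lama5*, *Chd3*, *Col4a5*, *Mmp9*, *Tnrc18* and *Prrc2b* no longer passed. *Meg3*, *mt-Rnr1*, *Gnas*, *Nlgn2*, *Tnrc18* and *Prrc2b* passed without any 1 of the dishes. The rest lost their call without at least 1 dish.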

How the results depend on the processing

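The counts of 1767 upregulated and 1905 downregulated genes stayed within 1.5 times under RLE size factors, library totals, DESeq2, other filters on low counts, own-strand counts and removal of GC and length trends. They fell to 1072 and 1103 with all 18 libraries in one fit, and to 8 and 47 against a null fold change of 1.2, which asks for larger changes by construction. With 1 input library left out they ranged from 1293 to 1517 and from 1530 to 1677. The 102 genes whose effect differed between input and IP became 63 with DESeq2, 33 with filterByExpr, 51 with GC and length trends removed and 0 without the dish block over 18 libraries (edgeR; 1459 at an unadjusted p below 0.05), and 20 to 117 with 1 dish left out. The cause of these shifts was not tested. With the replicate number as a replicate block 1847 genes were upregulated and 1982 downregulated. Deviations of same-numbered control and ethanol libraries correlated at 0.0194, 0.0566 and 0.0385, all under 0.1, and other pairs at -0.0709 to 0.0317. These values are over many genes at once, and *Fos* and *Egr1* ranked the replicates alike in both groups. The labels give the samples only a number in common. Of 209 called among 292 named genes, none reversed, and 51 lost their call under at least 1 alternative apart from the fold-change test, 31 of them with 1 library left out. The call was lost for *Gfap* without control 5 (-0.07), control 6 (-0.06), ethanol 5 (-0.06) or ethanol 6 (-0.07), for *Pdgfra* without ethanol 6 (0.44), for *Atf4* without control 5 (0.06), control 6 (0.07), ethanol 4 (0.06) or ethanol 5 (0.06), for *Trib3* without control 4 (0.34), control 6 (0.32) or ethanol 6 (0.29). It was lost for *Adh5* without control 5 (-0.07) or ethanol 4 (-0.07), for *Cat* without control 6 (0.07) or ethanol 4 (0.07), for *Aldh2* without control 4 (0.05), control 6 (0.07) or ethanol 6 (0.06), for *Nfe2l2* without control 4 (0.06), control 6 (0.07), ethanol 4 (0.06) or ethanol 6 (0.06). It was lost for *Hmox1* without control 4 (0.06), control 5 (0.07), control 6 (0.06), ethanol 5 (0.06) or ethanol 6 (0.04), for *mt-Cytb* without control 5 (0.05), for *Tnc* without control 4 (-0.06), control 6 (-0.06) or ethanol 4 (-0.05), for *Fgf2* without ethanol 4 (0.11). It was lost for *Slc6a9* without control 6 (0.31) or ethanol 5 (0.19), for *Ptprc* without control 4 (0.24), control 6 (0.22) or ethanol 4 (0.16), for *mt-Co2* without ethanol 5 (0.17), for *mt-Nd6* without control 5 (0.05). It was lost for *Grm8* without ethanol 4 (-0.23). Of 49 list medians 10 changed sign under at least 1 alternative, namely those of chromatin, collagen, endothelial and mural, ciliary, ethanol metabolism, growth factor, interferon, microglial, neuronal and oligodendrocyte genes. Library totals shifted the median of all genes by 0.0063 on the log2 scale. With 1 library left out, downregulated cytosolic ribosomal protein genes numbered as few as 18 in place of 33, upregulated astrocyte markers 6 in place of 11, upregulated mitochondrial mRNAs 3 in place of 6 and upregulated autophagy genes 9 in place of 14. In the fit over 18 libraries no downregulated interferon gene was left of 6. Below 1 CPM, 0.432% of genes were upregulated and 0.625% downregulated, so changes of rare transcripts were hardly detectable at this depth.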
